A study of Mus musculus with 6 samples.

Results

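The nuclear-encoded genes of the mitochondrial respiratory chain were measured by RNA sequencing in mouse epidermis treated with a gel that held AKBA or with a control gel. A gene belonged to the chain by its symbol: Ndufa, Ndufb, Ndufc, Ndufs or Ndufv followed by a number (complex I), Sdha to Sdhd (complex II), or a symbol that begins with Uqcr (complex III), Cox4 to Cox8 (complex IV) or Atp5 (complex V). A sum of at least 60 counts over the 6 libraries was required, and symbols with -ps or Gm were left out. Of 83 genes with such a symbol, 81 met the minimum, out of 47729 genes in the table: 36 of complex I, 4 of complex II, 8 of complex III, 16 of complex IV and 17 of complex V. The other two, Cox7b2 and Cox8c, had 0 counts in every library, which allows up to 3 counts or 0.128 to 0.159 CPM (the count relative to the scaled library size) in a library. The members nearest the minimum were Cox6b2 with 222 counts and Cox4i2 with 332 counts over the 6 libraries. All 81 members passed the filter on low counts that left 17023 genes for the test.

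The 3 AKBA gel libraries and the 3 control gel libraries all came from wild-type C57BL/6 mice, whose epidermis had been separated from the dermis with Dispase II, and the control gel is described as blank. AKBA stands for acetyl-11-keto-β-boswellic acid, one of the triterpenoids found in Boswellia resin. The control libraries have the letters IMQ in their descriptions without an expansion, and no source used here tells whether either group had a further treatment. Dose, time, age and the number of animals are likewise not given there. The p-values thus measure the spread between these libraries, and that spread may be technical.

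The respiratory chain sits in the inner mitochondrial membrane. Complex I takes electrons from NADH and complex II from succinate, both hand them to ubiquinone, complex III passes them on to cytochrome c, and complex IV passes them to oxygen. Complexes I, III and IV pump protons as they do so, and complex V, the ATP synthase, makes ATP from the returning protons. Complex II is encoded wholly in the nucleus, while the other complexes also hold subunits made from mitochondrial DNA. In the epidermis, keratinocytes lose their mitochondria with their other organelles as they cornify.

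The libraries held 19066045 to 22760432 counts, of which the 81 members took 0.737% to 0.835% and the 13 mitochondrially encoded subunits 2.03% to 3.14%. The libraries of a group differed from each other by more than counting noise (chi-square over degrees of freedom 30.8 to 91.7), and none was merged with another. Keratinocyte markers were abundant, with summed levels of 26994 to 67250 CPM for 9 suprabasal genes and 11708 to 33679 CPM for 8 basal genes. Fibroblast markers (8 genes, 21172 to 39297 CPM) and skeletal muscle markers (15 genes, 5363 to 10294 CPM) were present too, so the libraries hold RNA of more than epidermal cells. In such mixed tissue, fewer cells of a type and less RNA per cell cannot be told apart. Hair follicle keratins and regulators (9 genes tested) summed to 21.5, 691 and 1510 CPM in AKBA gel 1 to 3. In control gel 1 to 3 they summed to 196, 2032 and 63.0 CPM, so they varied widely within each group and the groups overlapped.

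No respiratory chain gene passed the test between AKBA gel and control gel. With edgeR's quasi-likelihood test and Benjamini-Hochberg adjustment, 0 of 81 members and 0 of 17023 genes had an adjusted p under 0.05 (background 0%), and the lowest adjusted p of a member was 0.34, that of Cox7a2l. At an unadjusted p under 0.05 stood 4 members (4.94%), namely Cox7a2l, Ndufb3, Atp5sl and Ndufa6, beside 13.5% of all genes. All 4 were on the higher side with AKBA gel, where 6.45% of all genes stood. DESeq2 called 0 of 81 members (lowest adjusted p 0.23), beside 1.65% of the genes to which it gave an adjusted p. None of the 81 was among the 273 genes marked significant in the authors' deposited table (0.572% of its genes), and the lowest adjusted p of a member there was 0.336, that of Ndufa6.

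Most members lay slightly above 0 on the log2 scale. The fitted log2 fold change (AKBA gel over control gel) was positive for 65 of 81 members (80.2%), beside 50.4% of all genes. Its median over the members was 0.14, a fold of 1.10, with quartiles of 0.03 and 0.22, beside a median of 0.0037 and quartiles of -0.18 and 0.19 over all genes. The members ranged from -0.57 (Ndufa12) to 0.60 (Cox6b2). The 95% interval of the fold change stayed within 2-fold either way for 76 members (93.8%, beside 74% of all genes) and within 1.5-fold for 53 members (65.4%, beside 42.5%). The plot of fold changes gene by gene shows these intervals.

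**Figure D1:**
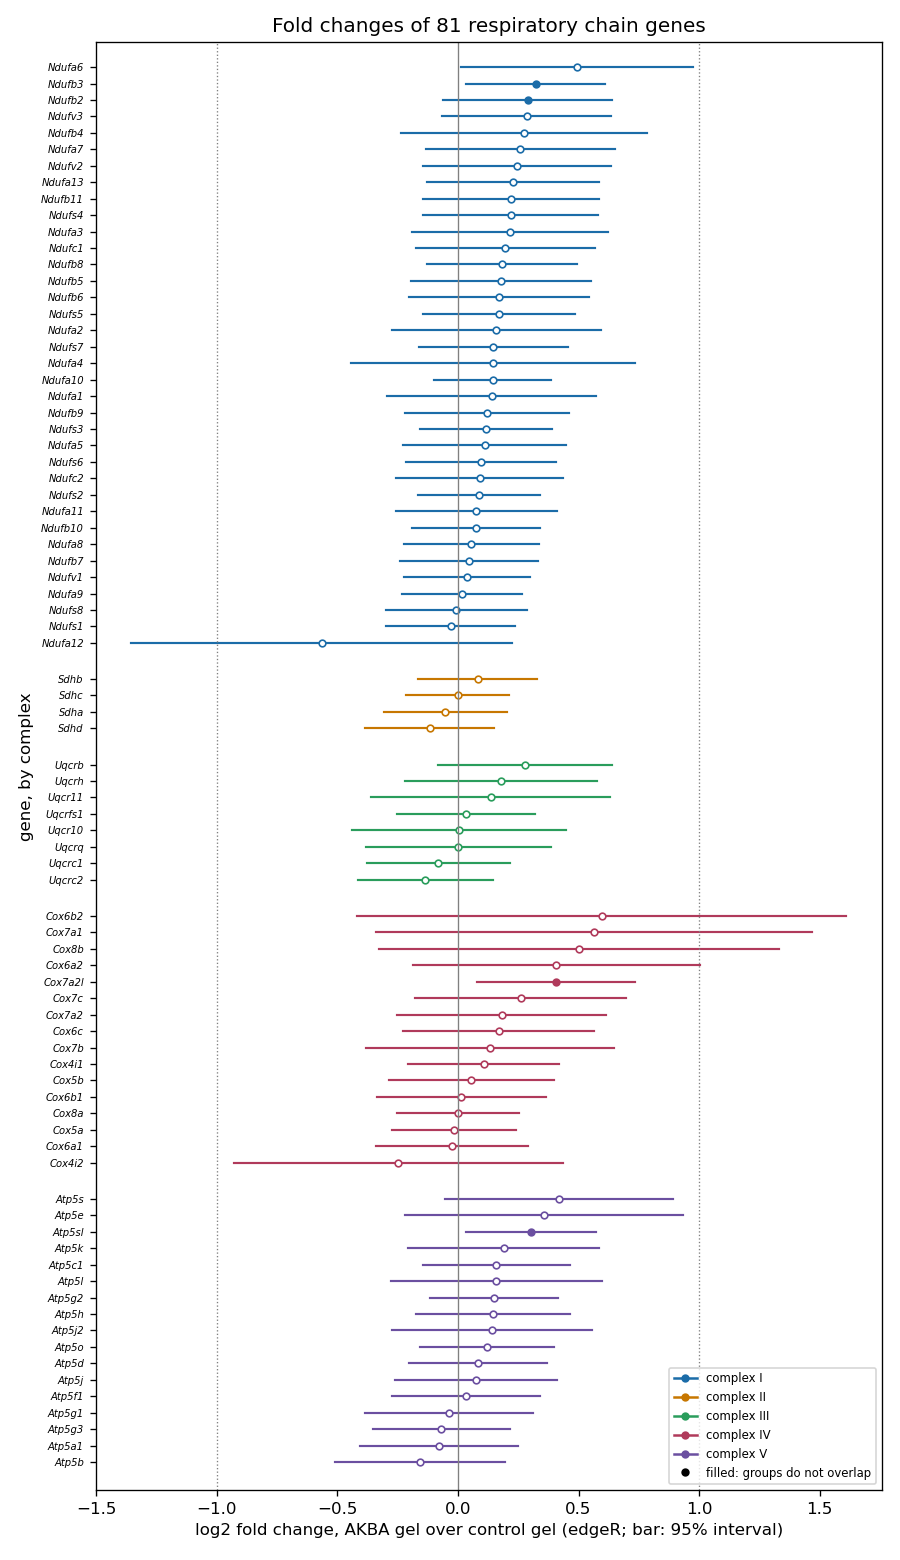
Fitted log2 fold change, AKBA gel over control gel (x axis), for each of the 81 respiratory chain genes (y axis, grouped by complex), with 95% intervals as bars, dotted lines at 2-fold and filled points for genes whose groups do not overlap. Most points lie between 0 and 0.5, 4 points are filled, and Ndufa12 lies farthest to the left at -0.57.

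The size of this median rested on single libraries. Without AKBA gel 2 the median of the members was 0.02 and without control gel 2 it was 0.06, while it was 0.22 without AKBA gel 3 and 0.24 without control gel 3. The number of members with a positive fold change was between 53 (without AKBA gel 2) and 74 (without control gel 3). In all 6 cases 0 members were called by edgeR.

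Every AKBA library lay above every control library for 4 members (4.94%), beside 9.28% of all genes, and the opposite order held for 0 members, beside 9.1% of all genes. The share of members whose groups did not overlap was thus below that of all genes in both directions. The 4 members are described here in turn, of which Ndufb2 and Atp5sl were named after their values had been seen. The count rested on AKBA gel 3 and control gel 3: without AKBA gel 3 it was 25 of 81 members and without control gel 3 it was 24, beside 19.2% and 12.7% of all genes. Without AKBA gel 1 or AKBA gel 2 it was 4, beside 12.5% and 13.1% of all genes. Without control gel 1 or control gel 2 it was 5, beside 18.8% and 11.9%. In the lower direction it was 1 without AKBA gel 1, AKBA gel 2 or control gel 3, beside 12.4%, 11.7% and 12.3% of all genes, and 3 without control gel 1, beside 18.3%.

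Cox7a2l lies on chromosome 17 (83501918 to 83517330, GRCm38), and its product helps complexes III and IV to join into supercomplexes. It stood at 155, 170.4 and 133 CPM in AKBA gel 1 to 3 and at 128, 100.3 and 118 CPM in control gel 1 to 3. AKBA gel 3 lay just above control gel 1, so the groups did not overlap by a narrow margin. The log2 fold change was 0.41 ± 0.14 (SE; 95% interval 0.08 to 0.73; edgeR adjusted p = 0.34).

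Ndufb3 (chromosome 1, 58586384 to 58595964), an accessory subunit in the membrane arm of complex I, stood at 42.1, 42.0 and 38.0 CPM with AKBA gel and at 31.9, 28.7 and 37.0 CPM with control gel. AKBA gel 3 lay just above control gel 3. Its log2 fold change was 0.32 ± 0.12 (SE; edgeR adjusted p = 0.35). Ndufb2 (chromosome 6, 39592574 to 39603382), another accessory subunit of the membrane arm, stood at 9.12, 9.30 and 9.88 CPM with AKBA gel and at 8.43, 7.95 and 6.80 CPM with control gel. Its libraries within each group were close together, and the log2 fold change was 0.29 ± 0.15 (SE; edgeR adjusted p = 0.45). Atp5sl (chromosome 7, 25619414 to 25625551) carries the name of an ATP synthase gene, but its product is known as an assembly factor of complex I. It stood at 23.9, 24.1 and 21.1 CPM with AKBA gel and at 20.2, 18.0 and 17.8 CPM with control gel, a log2 fold change of 0.30 ± 0.12 (SE; edgeR adjusted p = 0.35).

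**Figure D2:**
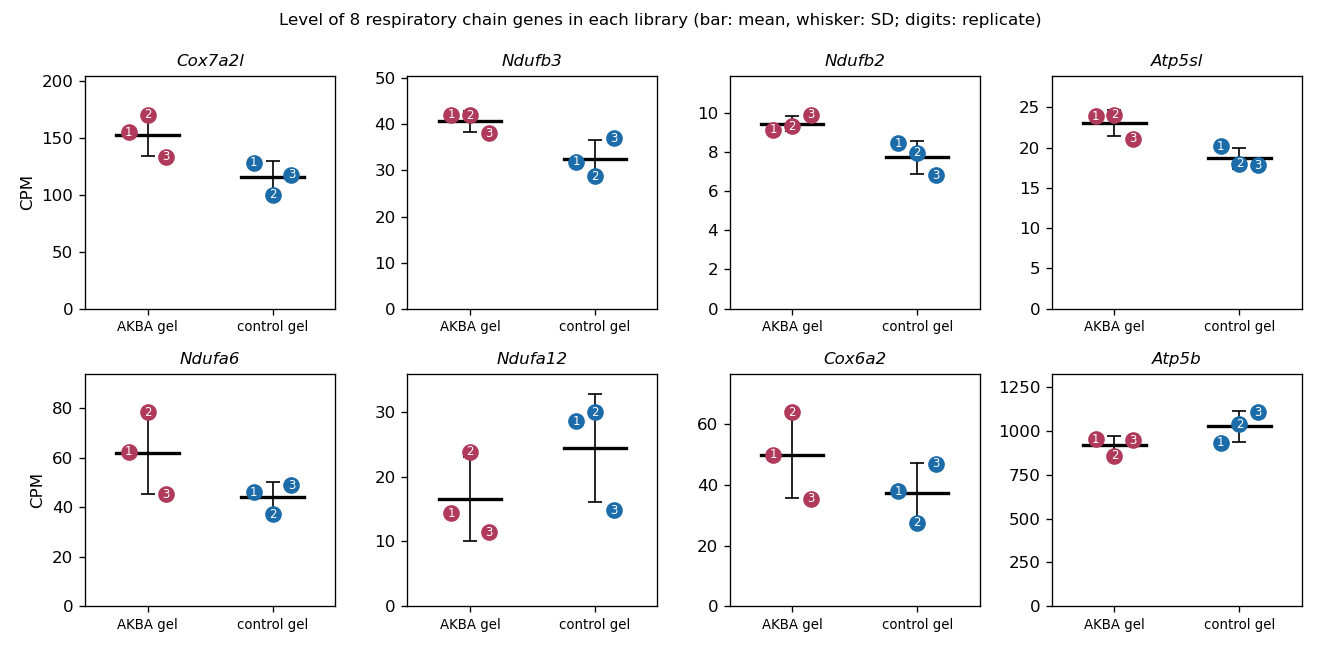
Level in CPM (y axis, from 0) of 8 respiratory chain genes in the AKBA gel and control gel libraries (x axis), with 1 point per library marked by its replicate digit, the group mean as a bar and the SD as a whisker. In the first 4 panels the groups do not overlap, as in Cox7a2l with 133 to 170.4 CPM against 100.3 to 128 CPM, and in the other 4 panels they overlap.

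Levels can be set side by side between genes only per length, for which the deposited FPKM, a level scaled by gene length and library size, was used, as the mean over all 6 libraries. The level of the members ran from 1.53 FPKM (Ndufb2) to 255 FPKM (Cox6a1), with a median of 47.7 FPKM. The median level was 32.2 FPKM for complex I, 41.6 FPKM for complex II, 72.2 FPKM for complex III, 73.0 FPKM for complex IV and 47.1 FPKM for complex V. The highest were Cox6a1 (255 ± 13 FPKM; SD over 6 libraries), Cox8a (246 ± 7.32 FPKM), Atp5a1 (239 ± 12.1 FPKM) and Atp5b (229 ± 18.5 FPKM), whose spreads overlap with the next in that order. Cox6a1 and Cox8a encode small subunits of complex IV, and Atp5a1 and Atp5b the α and β subunits of the catalytic head of the ATP synthase. At the low end, Ndufb2 was followed by Cox6b2 (1.58 ± 0.682 FPKM) and Cox4i2 (3.30 ± 0.915 FPKM), which are tissue-restricted isoforms. The length behind the Ndufb2 value was 5629 bases, against a median of 1465 bases over the members, so its low FPKM depends on the annotated length too.

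Promoter windows from RefSeq (GRCm38.p6; the 250 bases before a gene's start) were at hand for 68 of the 81 members. NRF1, a transcription factor long tied to respiratory chain genes, binds sites with the core CGCANGCG (N for any base), and these letters, searched on both strands like the others, stood in 19 of the 68 windows (27.9%). They stood in 7.65% of 27025 gene windows and in 14.2% of the 12220 windows of genes tested here. The letters CCGGAAG, bound by GABP and other ETS factors, stood in 12 member windows (17.6%), beside 7.83% of all windows and 13.8% of those of tested genes. The letters CCAAT stood in 44.1% (37.5% of all windows, 39.5% of those of tested genes), TATAAA in 7.35% (14.3% and 8.90%) and CAGCTG, an E box of many muscle genes, in 8.82% (14.7% and 14.9%). A match is a description of the letters and not a binding site, and no test was made of these shares.

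Of the members that the results turn on, 3 windows are shown to let the promoter of the most abundant complex IV gene be read beside those of a muscle isoform and of the member with the lowest p. All are on the minus strand of GRCm38.p6 and are written in the direction of transcription, with NRF1, ETS and CAGCTG matches in capitals. None of the capital stretches overlaps another. The Cox6a1 window (chr5:115348959-115349208) holds an NRF1 match beginning 161 bases before the start, another at 116 bases and the ETS letters, on the other strand, at 16 bases, beside a CCAAT match left in lower case. The Cox8b window (chr7:140900447-140900696) holds CAGCTG at 19 bases before the start. The window of Cox7a1, another muscle isoform, has no CAGCTG, while those of Ndufv2, Ndufs5, Ndufb10, Ndufa8 and Atp5b have it. The Cox7a2l window (chr17:83514334-83514583) lies inside the longer gene span of the GENCODE annotation and holds none of the letters searched, which says only that these letters are not in this window.
Cox6a1: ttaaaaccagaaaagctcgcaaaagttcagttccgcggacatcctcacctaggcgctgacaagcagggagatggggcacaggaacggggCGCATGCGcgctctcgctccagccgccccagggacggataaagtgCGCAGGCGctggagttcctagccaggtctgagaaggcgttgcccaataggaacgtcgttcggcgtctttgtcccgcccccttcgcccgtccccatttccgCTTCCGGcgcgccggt
Cox8b: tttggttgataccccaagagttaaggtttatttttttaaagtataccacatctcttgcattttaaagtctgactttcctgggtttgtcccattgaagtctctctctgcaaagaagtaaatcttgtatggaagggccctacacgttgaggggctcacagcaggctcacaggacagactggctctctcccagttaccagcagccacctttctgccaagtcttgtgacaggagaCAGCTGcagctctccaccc
Cox7a2l: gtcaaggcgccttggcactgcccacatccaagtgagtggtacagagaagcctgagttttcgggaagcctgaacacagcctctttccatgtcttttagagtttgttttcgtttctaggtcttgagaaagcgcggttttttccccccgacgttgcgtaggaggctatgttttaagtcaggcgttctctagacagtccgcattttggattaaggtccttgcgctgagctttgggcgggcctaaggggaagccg

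Complex I, the NADH dehydrogenase, had 33 of 36 members with a positive log2 fold change, a median of 0.15 and a range from -0.57 to 0.49. Its summed level was 2031 ± 264 CPM in the AKBA libraries, against 1853 ± 202 CPM in the controls (SD, n = 3 each), which overlap. The core subunits Ndufs1 and Ndufv1, which carry redox centres, lay close to 0. Ndufs1, the iron-sulfur subunit that first receives electrons from the flavin subunits, stood at 97.9, 80.4 and 89.3 CPM with AKBA gel and at 89.0, 85.2 and 99.2 CPM with control gel (log2 fold change -0.03 ± 0.11). Ndufv1, which binds NADH and the flavin, stood at 106, 97.3 and 95.8 CPM with AKBA gel and at 90.6, 91.6 and 109 CPM with control gel (0.04 ± 0.11). For both genes the highest library was control gel 3 and the groups overlapped widely.

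Some accessory subunits of complex I lay farther from 0. Ndufa6 (chromosome 15, 82350140 to 82354322) stood at 62.5, 78.3 and 45.2 CPM with AKBA gel and at 46.0, 37.2 and 48.8 CPM with control gel. AKBA gel 1 and AKBA gel 2 lay above all controls, while AKBA gel 3 lay below control gel 1 and control gel 3. The log2 fold change of 0.49 ± 0.21 (SE; edgeR adjusted p = 0.36) was 0.29 without AKBA gel 2.

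Ndufb9 stood at 86.2, 98.3 and 73.7 CPM with AKBA gel and at 71.8, 74.2 and 91.5 CPM with control gel, a log2 fold change of 0.12 ± 0.15. Ndufa4, first described in complex I and now counted as a subunit of complex IV, had the highest FPKM of the Nduf genes (151 ± 31.7) and stood at 232, 277 and 153 CPM with AKBA gel and at 190.2, 156 and 253 CPM with control gel. Both genes were high in AKBA gel 1, AKBA gel 2 and control gel 3 and low in the other libraries. The log2 fold change of Ndufa4, 0.15 ± 0.25, was -0.05 without AKBA gel 2 and 0.36 without AKBA gel 3.

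Ndufa12 (chromosome 10, 94198720 to 94221443), an accessory subunit close to the iron-sulfur clusters, had the lowest log2 fold change of the complex, in which 33 genes were positive and 3 negative. It stood at 14.3, 23.9 and 11.5 CPM with AKBA gel and at 28.5, 29.9 and 14.9 CPM with control gel. Control gel 1 and control gel 2, where most members were low, held its highest levels, and control gel 3 lay within the AKBA range. The log2 fold change of -0.57 ± 0.34 (SE; 95% interval -1.35 to 0.22) did not pass the test (edgeR adjusted p = 0.50). It was -0.92 without AKBA gel 2 and -0.34 without AKBA gel 3.

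Complex II, the succinate dehydrogenase, varied least between libraries, with a median coefficient of variation of 6.10%, beside 12.2% to 19% for the other complexes. Its summed level was 419 ± 8.94 CPM in the AKBA libraries, against 428.5 ± 21.5 CPM in the controls, and the median log2 fold change over its 4 genes was -0.03. Sdha, the flavoprotein that oxidizes succinate, stood at 207, 181 and 201 CPM with AKBA gel and at 199.8, 202 and 209 CPM with control gel (-0.05 ± 0.11). Sdhb, the iron-sulfur subunit, stood at 71.7, 79.3 and 69.4 CPM with AKBA gel and at 65.4, 67.6 and 75.3 CPM with control gel (0.08 ± 0.11). Neither gene separated the groups. Of the membrane anchors, Sdhc stood at 75.8 to 79.2 CPM with AKBA gel and at 74.7 to 81.3 CPM with control gel, and Sdhd at 71.8, 76.7 and 68.6 CPM with AKBA gel and at 68.9, 80.6 and 86.1 CPM with control gel (-0.12 ± 0.12). The highest library of Sdhc was 1.09 times its lowest, the smallest such ratio of the 81 members. For all 4 genes the 95% interval stayed within 1.5-fold either way.

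Complex III, the cytochrome bc1 complex, had a median log2 fold change of 0.02 over 8 genes, of which 6 were positive. With each library left out in turn this median ran from -0.05 to 0.16. The summed level was 831 ± 86.7 CPM in the AKBA libraries, against 825 ± 101 CPM in the controls. Uqcrb, a small subunit near the ubiquinone site, stood at 76.2, 79.6 and 54.4 CPM with AKBA gel and at 61.5, 55.4 and 56.4 CPM with control gel. AKBA gel 1 and AKBA gel 2 lay above the controls and AKBA gel 3 below all of them, with a log2 fold change of 0.28 ± 0.15 (SE; edgeR adjusted p = 0.47). Uqcrh, the hinge subunit by which cytochrome c1 meets cytochrome c, stood at 97.2, 129 and 87.3 CPM with AKBA gel and at 91.2, 80.3 and 105 CPM with control gel. Its log2 fold change of 0.18 ± 0.17 was 0.0015 without AKBA gel 2.

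The core proteins of complex III did not share the positive direction. Uqcrc1 stood at 230.5, 222 and 209 CPM with AKBA gel and at 210.2, 227 and 263 CPM with control gel (-0.08 ± 0.13), and its log2 fold change was 0.01 without control gel 3. Uqcrc2 stood at 138, 122 and 122 CPM with AKBA gel and at 133, 130.0 and 157 CPM with control gel (-0.14 ± 0.12). Both were highest in control gel 3. Uqcrfs1, the Rieske iron-sulfur protein, stood at 115, 112 and 99.8 CPM with AKBA gel and at 97.9, 100.4 and 121 CPM with control gel (0.03 ± 0.12). Uqcr10, the small subunit with the highest FPKM of the complex (100.2 ± 13), had overlapping groups of 46.6 to 68.8 and 51.6 to 72.7 CPM (0.0047 ± 0.19).

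Complex IV, the cytochrome c oxidase, varied most between libraries, with a median coefficient of variation of 19%. The tissue-restricted isoforms Cox4i2, Cox6a2, Cox8b, Cox6b2 and Cox7a1 had its highest values, from 25.1% (Cox4i2) to 48.9% (Cox7a1). The other genes of the complex ran from 5.95% (Cox8a) to 21.5% (Cox7b). The median log2 fold change over the 16 genes of complex IV was 0.15, with 12 positive. The summed level was 1398 ± 185 CPM in the AKBA libraries, against 1282 ± 164 CPM in the controls. Most of the broadly expressed subunits lay close to 0. Cox4i1, the largest nuclear subunit, stood at 224, 246 and 203 CPM with AKBA gel and at 202, 189.9 and 234 CPM with control gel (0.11 ± 0.13). Cox6a1 stood at 189, 189 and 157 CPM with AKBA gel and at 165, 175 and 204 CPM with control gel (-0.02 ± 0.14). In both genes control gel 3 lay above AKBA gel 1, and the groups overlapped. Cox5a (-0.02 ± 0.11), Cox5b (0.06 ± 0.15), Cox6b1 (0.01 ± 0.15), Cox7a2 (0.18 ± 0.19) and Cox8a (-0.00078 ± 0.11) likewise had overlapping groups.

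Several subunits of complex IV exist as a broadly expressed and a tissue-restricted isoform. The restricted genes Cox6b2, Cox7a1, Cox8b and Cox6a2 had the highest log2 fold changes of the complex, with larger errors than their partners. Cox7a2l was level with Cox6a2 at 0.41, and the restricted gene Cox4i2 had the lowest log2 fold change of the complex (-0.25). Cox6a2, Cox7a1 and Cox8b are the isoforms of heart and skeletal muscle. Cox6a2 stood at 50.0, 63.9 and 35.5 CPM with AKBA gel and at 38.0, 27.5 and 47.0 CPM with control gel (0.41 ± 0.26; edgeR adjusted p = 0.52). Cox7a1 stood at 5.79, 13.7 and 5.45 CPM with AKBA gel and at 5.76, 4.15 and 6.90 CPM with control gel (0.56 ± 0.39; edgeR adjusted p = 0.55). Cox8b stood at 11.6, 16.4 and 6.73 CPM with AKBA gel and at 8.0, 5.59 and 10.9 CPM with control gel (0.50 ± 0.36; edgeR adjusted p = 0.57). All 3 muscle isoforms were highest in AKBA gel 2 and lowest in control gel 2. Without AKBA gel 2 their log2 fold changes were 0.19 for Cox6a2, 0.0061 for Cox7a1 and 0.17 for Cox8b.

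The share of each restricted isoform in the FPKM of its pair did not separate the groups. Cox6a2 made up 22.1% ± 3.52 of the Cox6a1 and Cox6a2 pair with AKBA gel and 17.5% ± 3.02 with control gel (SD, n = 3 each). Cox7a1 made up 15.9% ± 4.30 and 13.2% ± 1.49 of its pair with Cox7a2, and Cox8b 11.3% ± 4.29 and 8.26% ± 1.95 of its pair with Cox8a. The plot of isoform shares shows these overlaps. Cox4i2, the isoform of lung and low oxygen, stood at 2.65, 1.75 and 2.68 CPM with AKBA gel and at 3.67, 2.66 and 2.11 CPM with control gel (-0.25 ± 0.29), 2.07% ± 0.608 and 2.63% ± 0.857 of its pair with Cox4i1. Cox6b2, the testis isoform, stood at 1.77, 2.34 and 2.17 CPM with AKBA gel and at 0.952, 2.40 and 0.767 CPM with control gel. Control gel 2 was its highest library of all, so the log2 fold change of 0.60 ± 0.44 (edgeR adjusted p = 0.58) was 1.27 without that library.

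**Figure D3:**
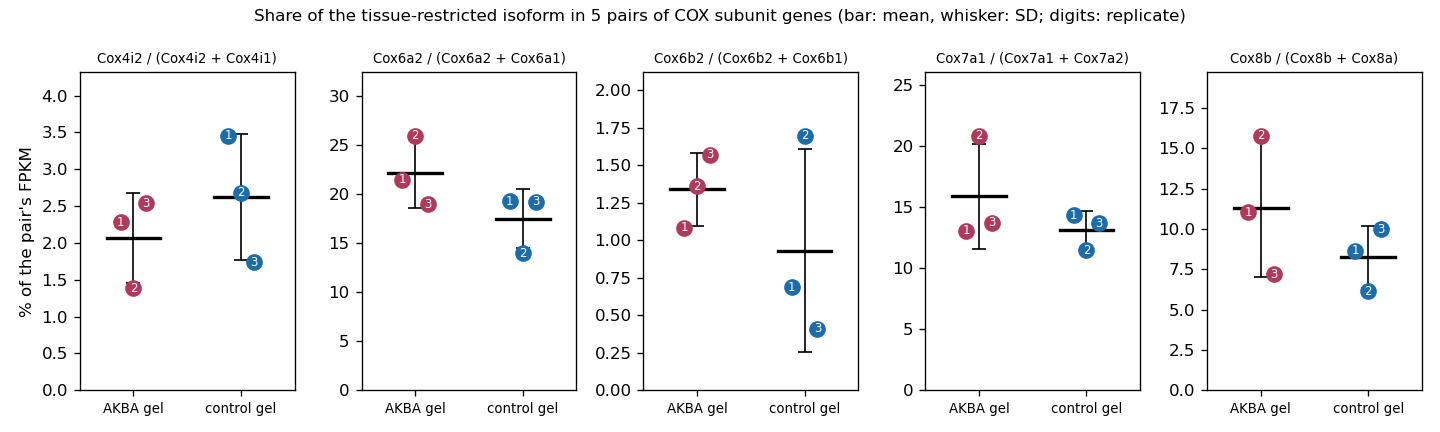
Share of the tissue-restricted isoform in the summed FPKM of its pair (y axis, percent, from 0, scaled per panel) for 5 pairs of complex IV subunit genes in the AKBA gel and control gel libraries (x axis), with 1 point per library marked by its replicate digit, the mean as a bar and the SD as a whisker. The groups overlap in every panel, and AKBA gel 2 is the highest point for Cox6a2, Cox7a1 and Cox8b.

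Skeletal muscle markers were measured beside these isoforms. All 15 were tested and 0 were called by edgeR (1 at an unadjusted p under 0.05, beside 13.5% of all genes). The median log2 fold change was 0.06, and none was at 0 counts. Their summed level was 8738, 8483 and 7434 CPM with AKBA gel and 10294, 5363 and 6720 CPM with control gel. The sum was highest in control gel 1, where the myosin gene Myh4 took 2229 CPM of it and the muscle isoforms of complex IV were not high. Acta1, skeletal muscle actin, stood at 2491, 2854 and 1849 CPM with AKBA gel and at 2374, 1377 and 2181 CPM with control gel, highest in AKBA gel 2 and lowest in control gel 2 as the isoforms were. Tnnt3, the troponin T of fast muscle, stood at 496, 570.3 and 410.02 CPM with AKBA gel and at 525, 283 and 401 CPM with control gel, and was likewise highest in AKBA gel 2 and lowest in control gel 2. These are the markers with the highest FPKM, and their log2 fold changes were 0.28 ± 0.27 and 0.29 ± 0.24. Over the list these ran from -1.71 for Myh4, a fast muscle myosin that was highest in control gel 1, to 0.67 for Myh1, another fast myosin and the 1 marker with an unadjusted p under 0.05, both named after their values had been seen. The part of muscle RNA in the isoform values was not tested.

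Complex V, the ATP synthase, took the largest share of the members' counts, with a summed level of 3243 ± 114 CPM in the AKBA libraries, against 3285 ± 304 CPM in the controls. Its median log2 fold change was 0.14 over 17 genes, with 13 positive. These 17 were counted by symbol and include Atp5sl. The catalytic subunits lay below 0, save that Atp5a1 was at 0.018 with AKBA gel 2 and control gel 3 both left out. Atp5b, the β subunit, stood at 953, 858 and 946 CPM with AKBA gel and at 932, 1039 and 1105 CPM with control gel (-0.16 ± 0.15; edgeR adjusted p = 0.68). Atp5a1, the α subunit, stood at 762, 694 and 730.4 CPM with AKBA gel and at 713, 762 and 835 CPM with control gel (-0.08 ± 0.14). In both genes AKBA gel 2 was the lowest library and control gel 3 the highest, the reverse of AKBA gel 2's place for most members.

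Of the other genes counted with complex V by symbol, Atp5s stood at 7.16, 6.38 and 5.84 CPM with AKBA gel. With control gel it stood at 5.90, 4.15 and 4.46 CPM (0.42 ± 0.20, edgeR adjusted p = 0.42). AKBA gel 3 lay just below control gel 1, which is all that kept the groups from separating. Atp5e, the ε subunit of the central stalk, stood at 64.5, 111 and 57.0 CPM with AKBA gel and at 60.1, 53.1 and 68.3 CPM with control gel. Its log2 fold change of 0.36 ± 0.25 was 0.0066 without AKBA gel 2. The 3 genes for the one c subunit of the rotor, Atp5g1, Atp5g2 and Atp5g3, had log2 fold changes of -0.04 ± 0.15, 0.15 ± 0.11 and -0.07 ± 0.12, and their levels were 14.4 ± 1.29, 47.1 ± 4.28 and 77.4 ± 4.41 FPKM (SD over 6 libraries).

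The order of the libraries cut across the gels. Of 81 members, 48 were highest in AKBA gel 2 and 24 in control gel 3, and 37 were lowest in control gel 2, 20 in control gel 1 and 15 in AKBA gel 3. AKBA gel 1, AKBA gel 2 and control gel 3 were the 3 highest libraries for 62 members (76.5%), beside 10.6% of all genes. These are the 3 libraries in which the members' own median was highest, so this share is no test of the members against all genes. The median level of the members relative to each gene's own mean was 0.08, 0.22 and -0.14 (log2) in AKBA gel 1 to 3 and -0.12, -0.17 and 0.12 in control gel 1 to 3. With AKBA gel 2 and control gel 3 both left out, the median log2 fold change of the members was 0.14 again, and the groups did not overlap in the higher direction for 25 members, beside 17.3% of all genes. This pair was left out after the data had been seen.

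**Figure D4:**
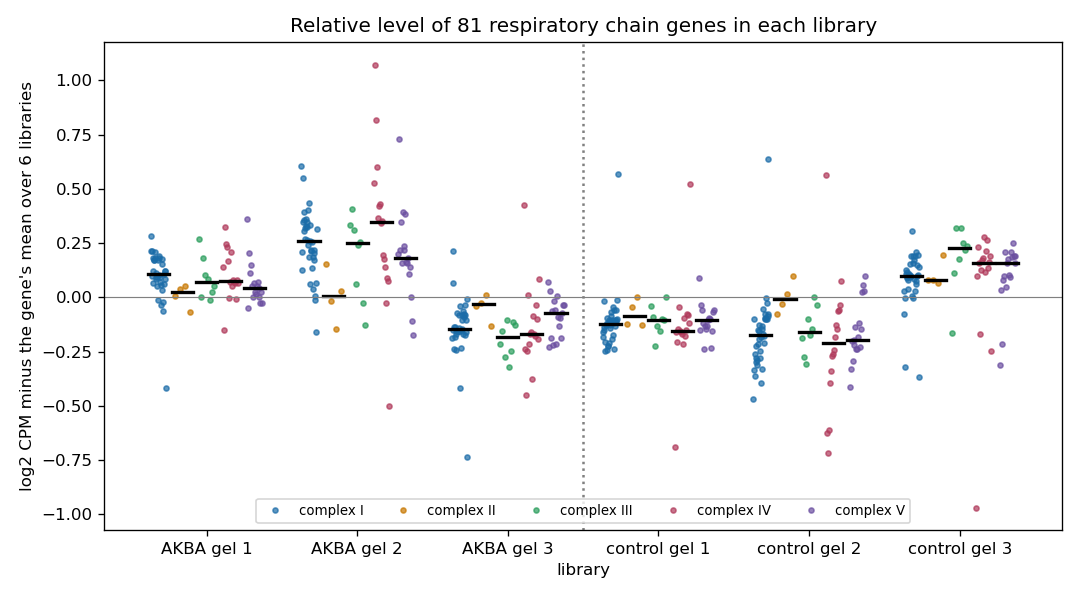
Level of each respiratory chain gene relative to its own mean over 6 libraries (y axis, log2) in each library (x axis), with 1 point per gene coloured by complex and the median of each complex as a black bar. AKBA gel 2 and control gel 3 sit above 0 and AKBA gel 3, control gel 1 and control gel 2 below it for complexes I, III, IV and V, while complex II stays near 0.

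The order of libraries was then measured in sets outside the respiratory chain, chosen after the data had been seen, and some but not all of them shared it. Among 81 genes of the cytosolic ribosome, which are short and abundant, AKBA gel 1, AKBA gel 2 and control gel 3 were the 3 highest libraries for 73 (90.1%), and the median log2 fold change was 0.18. Among 272 other genes of at least 20 CPM whose length was up to 1000 bases, the median relative level was 0.06, 0.27 and -0.20 for AKBA gel 1 to 3 and -0.13, -0.22 and 0.12 for control gel 1 to 3, with a median log2 fold change of 0.15. Among 819 such genes of 1000 to 2000 bases, the relative levels were 0.02, 0.11 and -0.11 with AKBA gel and -0.09, -0.05 and 0.11 with control gel, with a median log2 fold change of 0.03, beside 0.15 for the members of that length. Among 73 genes of the mitochondrial ribosome, AKBA gel 2 (0.16) and control gel 3 (0.07) were the highest, but AKBA gel 1 (-3.0e-05) lay below control gel 2 (0.0054), and the median log2 fold change was 0.05. Genes of the tricarboxylic acid cycle had AKBA gel 2 at -0.06, their lowest library. Among 7114 other genes of at least 20 CPM and over 2000 bases, the relative levels lay between -0.03 and 0.03, with a median log2 fold change of -0.04. Within the chain, the median was 0.15 for 26 members of up to 1000 bases, 0.15 for 28 of 1000 to 2000 bases and 0.07 for 27 of over 2000 bases. Over the 81 members, log2 fold change and length had a Spearman's rho of -0.27, a description over genes that share the same 6 libraries. The part of gene length or of a property of these libraries in the members' median was not tested.

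**Figure D5:**
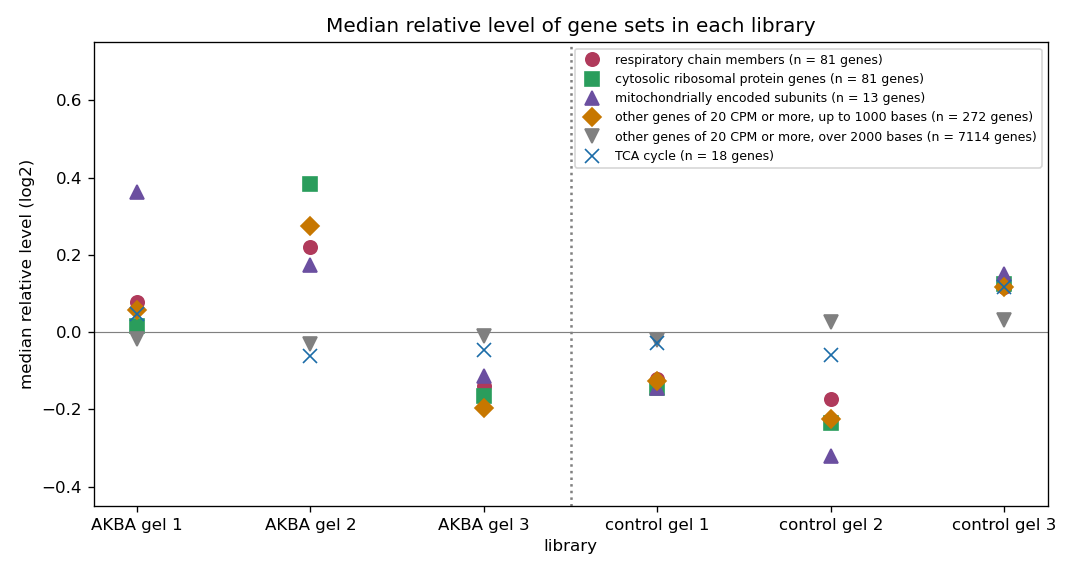
Median level relative to each gene's own mean (y axis, log2) in each library (x axis) for the respiratory chain members and 5 other sets of genes. The members follow the cytosolic ribosomal protein genes and other genes of up to 1000 bases, with the highest values in AKBA gel 2 (0.22, 0.38 and 0.27). Other genes of over 2000 bases stay between -0.03 and 0.03. Genes of 1000 to 2000 bases are not shown apart: in AKBA gel 2 members of that length were at 0.29 and other genes at 0.11.

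Markers of epidermal layers also differed among the libraries. Suprabasal keratinocyte markers summed to 57532, 67250 and 36299 CPM with AKBA gel and to 40932, 26994 and 32187 CPM with control gel. AKBA gel 2 was the highest and control gel 2 the lowest, as for most members, but control gel 3, where the members were high, lay below AKBA gel 3 and control gel 1. Of these 9 genes 0 were called by edgeR and 0 were at 0 counts. An edgeR unadjusted p under 0.05 was found for 4, beside 13.5% of all genes. The log2 fold change was positive for 8, beside 50.4% of all genes. The groups did not overlap for 2 in the higher direction, Krt77 and Flg2, and for 0 in the lower, beside 9.28% and 9.1% of all genes. Krt77 and Flg2 were named after their values had been seen. The genes of the list with the highest FPKM were Krt1 (0.50 ± 0.34) and Krt10 (0.95 ± 0.38), keratins of these layers. The 8 basal keratinocyte markers summed to 16240, 11708 and 14574 CPM with AKBA gel and to 15085, 21672 and 33679 CPM with control gel, so AKBA gel 2 was their lowest library and control gel 2 their second highest, unlike most members, while control gel 3 was the highest. The part of the keratinocyte layers in the members' values was not tested.

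The mitochondrial genome encodes 13 subunits of the same complexes. All 13 had a positive log2 fold change, beside 50.4% of all genes, with a median of 0.24. Of the 13, 0 were called by edgeR and 1, mt-Co3, had an unadjusted p under 0.05, beside 13.5% of all genes. All 13 had overlapping groups. mt-Co1, the catalytic subunit of complex IV, stood at 15406, 12726 and 10652 CPM with AKBA gel and at 10779, 8927 and 13041 CPM with control gel (0.24 ± 0.29). AKBA gel 1 was its highest library and control gel 2 its lowest. mt-Cytb, the cytochrome b of complex III, stood at 5017, 4206 and 3598 CPM with AKBA gel and at 3466, 3071 and 3949 CPM with control gel (0.29 ± 0.23). The values of mt-Co2, mt-Co3 and mt-Atp6 are uncertain, because near-identical copies on chromosome 1 took more counts than they did: 5183 to 9209 per library for Gm28661 against 729 to 1336 for mt-Co2, 5055 to 10797 for Gm28437 against 496 to 876 for mt-Co3, and 6939 to 12840 for Gm10925 against 670 to 974 for mt-Atp6.

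Genes that build the complexes were close to the members. Of 45 assembly factors listed, 43 were tested and 0 were called by edgeR. Of the 43, 4 had an edgeR unadjusted p under 0.05, beside 13.5% of all genes. The median log2 fold change was 0.09, with 30 positive, and the groups did not overlap for 5 in the higher and 2 in the lower direction, beside 9.28% and 9.1% of all genes. Cox14, an assembly factor of complex IV, stood at 40.0, 46.2 and 31.9 CPM with AKBA gel and at 35.9, 30.1 and 35.9 CPM with control gel (0.21 ± 0.16; edgeR adjusted p = 0.58). Uqcc2, an assembly factor of complex III, stood at 43.0, 58.2 and 30.8 CPM with AKBA gel and at 35.0, 29.6 and 46.8 CPM with control gel (0.24 ± 0.25; edgeR adjusted p = 0.70). These were the assembly factors with the highest FPKM, and in both the groups overlapped and AKBA gel 2 was the highest library.

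Regulators of mitochondrial biogenesis had a median below 0. Of 17 genes tested, 5 had a positive log2 fold change, the median was -0.13 and 0 were called by edgeR. Of the 17, 4 had an edgeR unadjusted p under 0.05, beside 13.5% of all genes. Ppargc1a, the coactivator that drives biogenesis, stood at 3.97, 4.52 and 4.35 CPM with AKBA gel and at 4.67, 4.98 and 3.59 CPM with control gel. Tfam, which packs and transcribes mitochondrial DNA, stood at 25, 27.7 and 26.7 CPM with AKBA gel and at 25.9, 27.8 and 25.9 CPM with control gel, and Nrf1 and Gabpa had log2 fold changes of -0.18 ± 0.12 and 0.04 ± 0.10. These 4 genes, named for their known link to the chain after their values had been seen, had overlapping groups. The regulators with the highest FPKM were Yy1 (-0.13 ± 0.10; edgeR adjusted p = 0.57), for which all 3 AKBA libraries were lower than all 3 controls, and Esrra (0.11 ± 0.11; edgeR adjusted p = 0.72), for which the groups overlapped. The groups did not overlap for 4 of the 17 genes in the lower and 1 in the higher direction, beside 9.1% and 9.28% of all genes: Ppard, Pprc1, Nrip1 and Yy1 were lower and Tfb1m was higher, all but Yy1 named after their values had been seen.

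The pathways that feed the chain lay on both sides of 0. The 18 genes of the tricarboxylic acid cycle, counted here without succinate dehydrogenase and with the enzymes that feed it, had a median log2 fold change of -0.04 with 7 positive, and Cs, citrate synthase, averaged 421 ± 38.8 CPM in the AKBA libraries, against 379 ± 8.74 CPM in the controls. Cs, the gene of this list with the highest FPKM, had a log2 fold change of 0.15 ± 0.13, and the groups did not overlap for 1 gene, Fh1, in the lower direction. Of 16 genes of fatty acid oxidation 14 were positive (median 0.19), and the groups did not overlap for 3 in the higher direction, namely Hadh, Echs1 and Acaa2. Acaa2 (0.29 ± 0.12) and Acadl (-0.11 ± 0.14) had the highest FPKM of this list. Of 19 glycolytic genes 6 were positive (median -0.24), and the groups did not overlap for 4 in the lower direction (Hk2, Pgam1, Pkm and Ldha) and 1 in the higher (Aldoc). Pkm (-0.54 ± 0.22) and Aldoa (0.02 ± 0.19) had the highest FPKM here. Gapdh, also named after its values had been seen, was one of the negative genes (-0.59 ± 0.38) and stood at only 2.26 FPKM. Whether reads of Gapdh were counted elsewhere was not tested. Of 21 mitochondrial carriers and uncoupling proteins tested 12 were positive (median 0.02), and the groups did not overlap for 1 in each direction, Slc25a20 higher and Slc25a13 lower. Slc25a5 (-0.11 ± 0.14) and Vdac1 (0.02 ± 0.14) had the highest FPKM of the carriers. These counts stand beside 9.28% of all genes in the higher and 9.1% in the lower direction, and Fh1, Hadh, Echs1, Hk2, Pgam1, Ldha, Aldoc, Slc25a20 and Slc25a13 were named after their values had been seen. In these 4 lists 0 genes were called by edgeR, and 0, 4, 5 and 2 had an unadjusted p under 0.05, against 13.5% of all genes. Ucp1, the uncoupling protein of brown fat, had 1 to 4 counts in each library and was not tested.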

How the data were processed

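RNA of mouse epidermis, separated from the dermis with Dispase II, was extracted with TRIzol and made into TruSeq libraries, per the labels' protocols. The authors deposited 1 table with whole-number counts and FPKM values per gene and library, and their own comparison with log2 fold changes, p-values and adjusted p-values. Tools named in the submitters' processing notes are RSEM, edgeR and CASAVA 1.8, with the build GRCm38. No source used here gives their roles, the annotation or whether counts were rounded. Whether strand was used in counting is unknown, so overlapping genes may share reads. The deposited FPKM values imply a length within 2% of the union of GENCODE M21 exons for 72.8% of the members.

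The libraries held 19066045 to 22760432 counts, and 3 counts came to 0.128 to 0.159 CPM, which covers counting error only. Fits used edgeR 4.0.16 in R 4.3.3 on all 6 count columns as deposited, with TMM scaling, edgeR's own filter on low counts (17023 genes kept), the 2-sided quasi-likelihood F test and Benjamini-Hochberg adjustment over all genes tested with 0.05 as the threshold. Standard errors of log2 fold changes were taken as the absolute value over the root of the F statistic, and 95% intervals use the t quantile at 7.56 degrees of freedom. Levels in CPM are TMM-scaled, and relative levels are log2 CPM (prior count 2) minus the gene's mean. The fit was tested on simulated counts. Positions come from GENCODE M21 (GRCm38) and promoter windows from RefSeq. The NRF1 letters were shortened to their core after the matches of a longer form had been seen.

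The members, gene lists and tests were chosen with earlier results of these data known. Named members are those past the threshold, the highest 2 by FPKM and the highest and lowest 2 by fold change in each complex, and a set of core subunits and isoforms, 37 in all; of other lists, the 2 genes with the highest mean FPKM, 1 of them left out of the text. The alternatives were DESeq2 1.42.0 and its size factors, no filter, a stricter filter of 5 CPM in 3 libraries, a prior count of 2, the replicate number as a block and each library left out. The authors' tables of gene ontology terms and pathways were not used here.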

Additional observations from a re-analysis of the deposited data

How the results depend on the processing

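No member was called under any alternative: edgeR and DESeq2 called 0 of 81 in each, and the lowest adjusted p of the 37 named members was 0.19. DESeq2 called 289 genes in all, and edgeR called 14 without control gel 1 and 0 without any other library (0 to 14). With DESeq2 size factors, no filter, the stricter filter (79 of 81 members tested), a prior count of 2 or DESeq2 fold changes, the median log2 fold change of the members stayed between 0.13 and 0.15. With each library left out it ran from 0.022 to 0.24, that of complex I from 0.051 to 0.26, of complex II from -0.056 to 0.0052, of complex III from -0.045 to 0.16, of complex IV from 0.0099 to 0.31 and of complex V from 0.0066 to 0.21. Members whose groups did not overlap numbered 4 to 25 in the higher and 0 to 3 in the lower direction with a library left out. The shares of all genes in these settings were 11.9% to 19.2% in the higher and 11.7% to 18.3% in the lower direction. With AKBA gel 2 and control gel 3 both left out, a setting chosen after seeing the data, they numbered 25 and 1 (17.3% and 15.4% of all genes) and the median of complex II was 0.034. DESeq2 gives no levels for this count, so it was not run there. The deviations of same-numbered libraries from their group means had correlations of 0.07, 0.02 and -0.33. At 3 libraries a group these values cannot tell whether the replicate numbers pair the libraries. Under the number as a block 0 genes were called and the median of the members was 0.13.

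Of 479 values of named members under alternatives, 427 kept their direction and 52, from 17 members, changed sign, none of them past the threshold; the cause was not tested. With AKBA gel 2 and control gel 3 left out the log2 fold change was 0.018 for Atp5a1, 0.0096 for Atp5g1, 0.015 for Cox5a, 0.028 for Cox6a1, 0.086 for Cox8a, 0.10 for Ndufs1, 0.023 for Sdha, 0.046 for Sdhc and 0.0088 for Uqcrc1. Cox8a was at 0.0029 with no filter, 0.011 with the stricter filter and 0.0018 with the replicate block, Sdhc at 0.0019 and 0.0096 with those filters, and Uqcr10 at -0.00034 with DESeq2. With each library left out the ranges were -0.14 to 0.089 for Atp5g1, -0.15 to 0.014 for Atp5g3, -0.066 to 0.063 for Cox5a, -0.019 to 0.19 for Cox5b, -0.079 to 0.072 for Cox6a1, -0.059 to 0.17 for Cox6b1, -0.0100 to 0.32 for Cox7a2, -0.038 to 0.072 for Cox8a, -0.050 to 0.36 for Ndufa4, -0.10 to 0.039 for Ndufs1, -0.0083 to 0.13 for Ndufv1, -0.091 to 0.0043 for Sdha, -0.024 to 0.038 for Sdhc, -0.12 to 0.19 for Uqcr10, -0.14 to 0.015 for Uqcrc1 and -0.016 to 0.14 for Uqcrfs1. At 3 libraries a group, changes within the intervals given in the report were not excluded. A member that was not called is thus not shown to be unchanged.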

Other observations

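Marker lists of other cell types were measured in the same fit, and 0 of their genes were called by edgeR. The median log2 fold change was -0.19 for 8 basal keratinocyte markers (4 at an unadjusted p under 0.05), -0.29 for 8 fibroblast markers (0), -0.12 for 8 adipocyte markers (1), 0.68 for 8 sebocyte markers (2) and 0.02 for 9 hair follicle markers (0). It was -0.34 for 7 endothelial markers (2), -0.35 for 8 macrophage markers (4), 0.05 for 5 melanocyte markers (0), 0.26 for 5 erythroid markers (0) and -0.58 for 8 immediate early and stress genes (5). Over all genes 13.5% had an unadjusted p under 0.05. The 3 AKBA libraries were all lower than the 3 controls for 4 macrophage, 2 endothelial and 1 basal marker and 4 immediate early genes, and all higher for 2 sebocyte, 1 adipocyte and 1 basal marker, beside 9.1% and 9.28% of all genes. In the order of the lists above, the log2 fold changes of the genes with the highest FPKM were -1.22 for Krt14 and -0.24 for Krt5, -0.33 for Col1a1 and -0.44 for Col3a1, -0.14 for Fabp4 and -0.10 for Lpl, 0.64 for Krt79 and 0.67 for Elovl3, and -0.15 for Krt71 and -0.10 for Krt25. They were -0.52 for Cdh5 and -0.50 for Pecam1, -0.25 for Lyz2 and -0.36 for C1qb, 0.06 for Dct and 0.02 for Pmel, 0.29 for Hbb-bs and 0.26 for Hba-a1, and -0.91 for Junb and -0.26 for Ier2. Their part in the respiratory chain values was not tested.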
